A study of Mus musculus with 2 samples.

Results

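Mir126a and Mir126b are a pair of microRNA (miRNA) genes that face each other on opposite strands inside Egfl7, the gene of a protein secreted by the cells that line blood vessels. They were taken by name from the annotation (GENCODE M21) and are 2 of 2202 miRNA genes counted in the mouse adrenal gland. The samples are whole adrenal glands of male B6CASTF1/J mice aged 2 months, hybrids of the first generation between a laboratory strain and a castaneus strain. There is 1 group with 2 small RNA libraries, replicate 1 from animal 3 and replicate 2 from animal 4, and no treatment, mutation or second tissue. The labels number the animals separately but give both libraries the same donor identifier, and whether an SD over the 2 libraries covers the spread between donors was not tested. Replicate 1 held 17000342 reads and replicate 2 held 10752051 reads, and 5752428 and 3333149 of them were assigned to miRNA genes by strand. Levels are given in CPM, the count of a gene scaled to a library of 1000000 such reads, and small shares in ppm, parts per 1000000 reads. Intervals cover counting error only, as PCR copies cannot be told from separate molecules here.

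miR-126 is the best known miRNA of endothelial cells. Its precursor is cut from the Egfl7 transcript and gives miR-126a-5p and miR-126a-3p. In endothelium, miR-126a-3p represses Spred1 and Pik3r2, which restrain signalling from the receptor of vascular endothelial growth factor, and mice without it have leaky vessels. miR-126 is also present in blood stem cells and platelets. The adrenal gland is densely supplied with sinusoidal capillaries. Mir126a is annotated on the plus strand, like Egfl7, and Mir126b on the minus strand across the same bases.

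The hairpins are shown because every base of Mir126b also belongs to Mir126a. Sequences are from RefSeq (GRCm38.p6, the assembly also called mm10), 5′ to 3′, and capitals mark the mature products listed there.
Mir126a (chr2:26591357-26591429, plus strand): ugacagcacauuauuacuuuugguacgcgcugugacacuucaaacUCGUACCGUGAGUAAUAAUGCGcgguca
Mir126b (chr2:26591363-26591420, minus strand): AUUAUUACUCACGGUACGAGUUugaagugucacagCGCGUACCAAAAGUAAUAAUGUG

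Mir126b, with 58 bases, is the exact reverse complement of bases 7 to 64 of the 73 bases of Mir126a. Mir126a thus extends 6 bases beyond Mir126b at its 5′ end and 9 bases at its 3′ end. Both positions and both sequences were the same in GENCODE M21 and in RefSeq. The minimum free energy predicted at 37 °C was -31.2 kcal/mol for Mir126a, with 54 bases paired, and -19.3 kcal/mol for Mir126b, with 42 bases paired.

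The mature products are shown with the seed, bases 2 to 8, in capitals, since the seed chooses a miRNA's targets.
miR-126a-3p: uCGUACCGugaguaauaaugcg
miR-126b-5p: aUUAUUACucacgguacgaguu
miR-126b-3p: cGCGUACCaaaaguaauaaugug

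RefSeq lists 1 mature product for Mir126a, so miR-126a-5p is neither marked nor compared here. The seeds differ among the 3 products. None of these seeds occurred in another of the 1679 mature miRNAs of the RefSeq table. miR-126a-3p spans bases 46 to 67 of its hairpin, and 19 of its 22 bases lie opposite miR-126b-5p. No other RefSeq hairpin, of 1005, shared 18 bases in a row with Mir126a. The counts per gene do not separate the 5p and 3p arms.

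**Figure D1:**
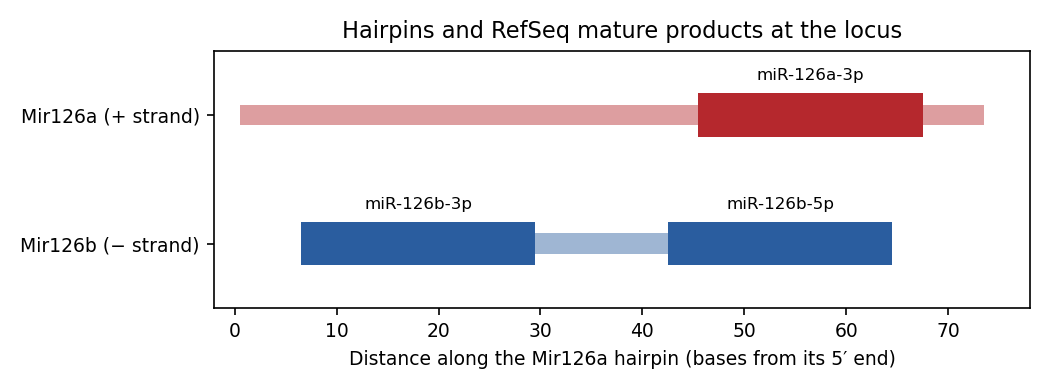
Map of the Mir126a hairpin (pale red) and the Mir126b hairpin (pale blue) with the mature products listed in RefSeq as solid boxes; the horizontal axis gives the distance in bases from the 5′ end of Mir126a. Mir126b spans bases 7 to 64 of Mir126a on the other strand, and miR-126a-3p lies opposite miR-126b-5p over 19 bases.

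Of 9 annotated Egfl7 transcripts that span the locus, 8 have both hairpins in an intron. In the protein-coding transcript that starts at 26581056, this is intron 7, which runs from 26591064 to 26591663 on chromosome 2. The exception is Egfl7-206, a retained-intron transcript, whose exon 4 (26590899 to 26591563) contains Mir126a. A further gene of the plus strand, Gm20532, spans the locus with an intron. The nearest other miRNA gene within 500 kb was Mir6996, 121238 bases away on the minus strand, with 0 reads in replicate 1 and 3 in replicate 2.

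Nearly all reads from the locus were on the strand of Mir126a. Mir126a had 397804 reads in replicate 1 and 217098 in replicate 2. Mir126b had 1 read in replicate 1 and 8 in replicate 2. The values of the genes do not overlap, and Mir126a was far higher in both animals. The ratio of Mir126a to Mir126b was 397804 in replicate 1 (exact 95% Clopper-Pearson interval 71398 to 15712458). In replicate 2 it was 27137 (13772 to 62858). On the log2 scale, with 0.5 reads added to each count, the ratio was 16.3 ± 2.39 (SD, n = 2). An exact paired test over 2 animals cannot go below p = 0.5, so no test is given.

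As a level, Mir126a reached 69154 CPM in replicate 1 (interval 68947 to 69362) and 65133 CPM in replicate 2 (64868 to 65398). Its mean was 67144 ± 2843 CPM (SD, n = 2), and the 2 animals differed by more than counting error. These levels are 5.81% and 4.92% of all uniquely aligned reads. Mir126b lay at 0.174 CPM in replicate 1 (0.00440 to 0.969) and at 2.40 CPM in replicate 2 (1.04 to 4.73). Detection was set at 2 CPM in each of the libraries, which 16.9% of all miRNA genes reached. Mir126a was detected by this rule and Mir126b was not, as it passed in replicate 2 only.

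Reads aligned to several places, 26.2% of replicate 1 and 28.8% of replicate 2, were not counted at any gene, so miRNAs with copied loci can rank too low. By the reads counted, Mir126a ranked 3 among all miRNA genes in each library. Directly above it were the growth-restraining let-7 genes Mirlet7g (113646 CPM in replicate 1, 116286 CPM in replicate 2) and Mirlet7b (94787 and 97356 CPM). Both lay above Mir126a by more than the spread between the animals. Directly below was Mir375, a miRNA of endocrine cells, at 68780 CPM in replicate 1 and at 46236 CPM in replicate 2. Within each library Mir126a was higher, 1.01 times in replicate 1 and 1.41 times in replicate 2. Across libraries the ranges overlap, since Mir375 in replicate 1 lay above Mir126a in replicate 2. Mir378a, in the metabolic gene Ppargc1b, followed with 53712 and 41751 CPM, below both values of Mir126a.

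Whether these counts survive depends on strand, because the deposited files count each read in 3 ways: without strand, on the gene's strand and on the opposite strand. Mir126a had 12 reads without strand and 397804 on its strand in replicate 1, and 8 reads without strand and 217098 on its strand in replicate 2. It kept 0.00302% of its reads in replicate 1 (interval 0.00156 to 0.00527) and 0.00368% in replicate 2 (0.00159 to 0.00726). Mir126b had 0 reads without strand in both libraries. On the opposite strand, Mir126b had 397792 reads in replicate 1 and 217090 in replicate 2, which are the reads Mir126a lost, to the read. Likewise, Mir126a had 1 and 8 reads on the opposite strand, the same numbers as Mir126b on its own.

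**Figure D2:**
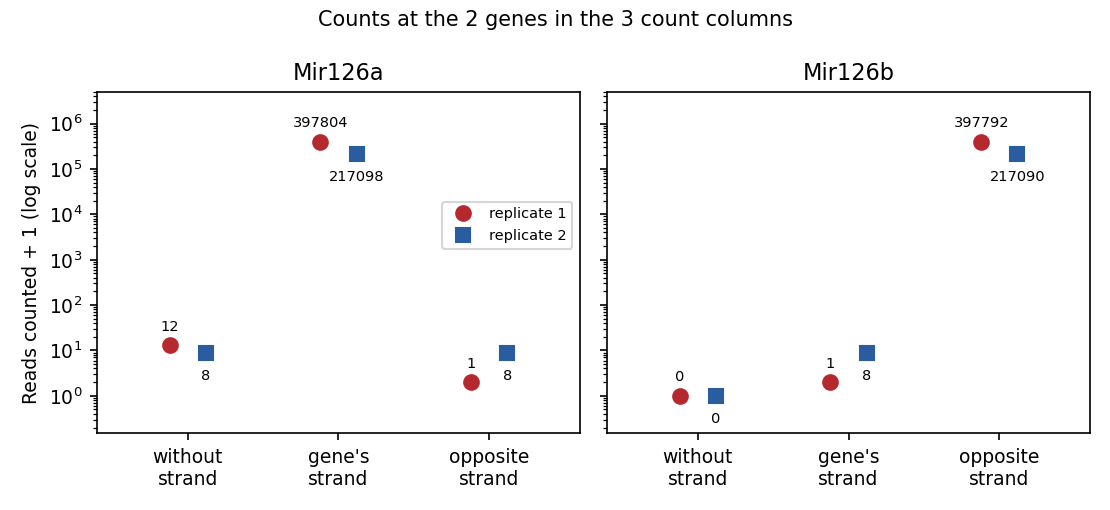
Reads counted at Mir126a (left) and Mir126b (right) in the 3 count columns, as count + 1 on a log axis, with circles for replicate 1 and squares for replicate 2 and the count beside each point. Mir126a had 12 and 8 reads without strand against 397804 and 217098 on its strand, and the same reads reappear on the opposite strand of Mir126b.

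The lost reads were set aside as ambiguous. The file's ambiguous row held 1006147 reads without strand and 3 with strand in replicate 1, and 473222 without strand and 6 with strand in replicate 2. The reads lost at Mir126a equal 39.5% of the ambiguous reads without strand in replicate 1 and 45.9% in replicate 2. By the annotation, a read that overlaps Mir126a but not Mir126b can lie on its first 6 or last 9 bases only. Without strand Mir126a would rank 360, and CPM of miRNA genes with unchanged counts would be 1.21 times as high in replicate 1 and 1.17 times in replicate 2.

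Other pairs behaved alike in this respect. The annotation holds 32 pairs of miRNA genes that overlap on opposite strands, with 64 genes. Of 259 genes with 100 or more own-strand reads in mean, 23 (8.88%) lost at least 90% without strand, and all 23 are members of such pairs. Mir126a alone held 39.5% of the own-strand reads of these 23 genes in replicate 1 and 45.9% in replicate 2. The remaining 236 genes kept 99% or more.

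**Figure D3:**
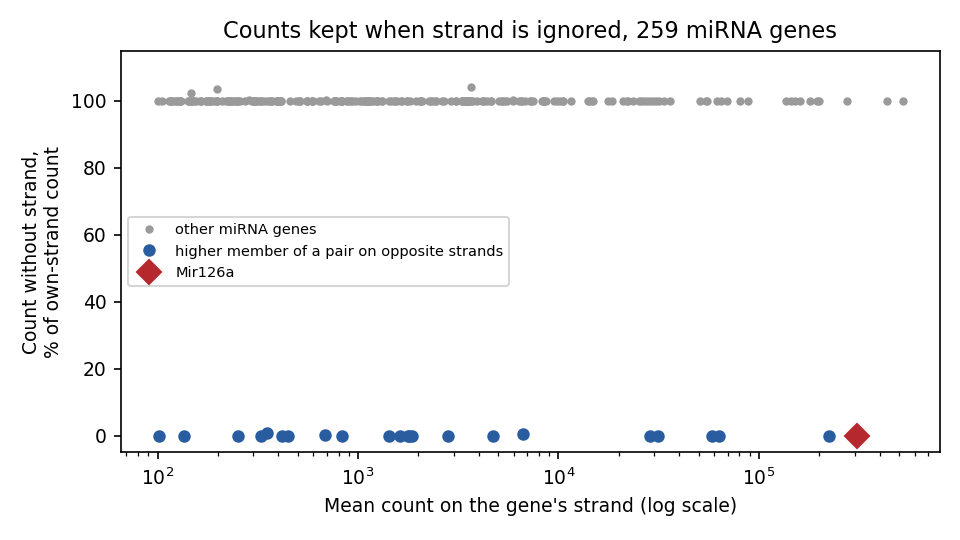
Count without strand as a percentage of the own-strand count, summed over both libraries, against the mean own-strand count on a log axis, for 259 miRNA genes. The 23 higher members of pairs on opposite strands lie near 0, with Mir126a (red diamond) the furthest right of them, and the other genes lie near 100.

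Mir126b had reads in both animals, while the lower genes of the next 4 pairs, which held fewer reads, had 0. The 5 pairs with the highest counts were Mir126a with Mir126b, Mir378a with Gm25301, Mirlet7e with Gm25927, Mir451a with Mir451b and Mir191 with Gm24083. In the other 4 of these pairs the lower gene had 0 reads on its strand in both libraries. At Mir378a that was beside 308974 reads in replicate 1 and 139163 in replicate 2, and at Mir451a, an erythroid gene, beside 124341 and 2318 reads. A count of 0 at Gm25301, taken as up to 3 reads, allows up to 9.71 ppm of the reads of the pair in replicate 1 and 21.6 ppm in replicate 2. Mir126b held 2.51 ppm of the reads of its pair in replicate 1 (interval 0.0636 to 14.0) and 36.8 ppm in replicate 2 (15.9 to 72.6). The limit at Gm25301 lay above this share in replicate 1 and below it in replicate 2. In replicates 1 and 2 the limit was 38.1 and 78.7 ppm at Gm25927, 24.1 and 1294 ppm at Mir451b, and 74.8 and 131 ppm at Gm24083. These limits lay above the share of Mir126b in both libraries, so Gm25927, Mir451b and Gm24083 cannot be placed below Mir126b.

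Among the 23 pairs whose higher member had 100 or more reads in mean, the lower gene had a read in either library in 11 pairs and in both libraries in 5. By its share of the reads of the pair, Mir126b stood at place 10 in replicate 1 and at place 6 in replicate 2. That was the last place among the 10 lower genes with a read in replicate 1 and the 6 in replicate 2, and all the others belong to pairs of fewer reads. Mir3065, opposite Mir338, had 32 reads beside 1745 in replicate 1 and 11 beside 1984 in replicate 2, and Mir3074-1, opposite Mir24-1, had 39 beside 300 and 29 beside 205. These were named after their values were seen. The product of Mir24-1 has a second locus, and reads with several alignments were not counted.

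Highly counted genes with no annotated partner give the level of opposite-strand reads elsewhere. Of 42 such genes with 10000 or more reads in mean, 7 (16.7%) had any read on the opposite strand in either library. Mirlet7g had 0 in both libraries, which on the same count of 3 reads allows up to 4.59 ppm in replicate 1 and 7.74 ppm in replicate 2. Mirlet7b had 11 reads in replicate 1 and 25 in replicate 2, or 20.2 and 77.0 ppm of its reads on both strands. Mir130a was highest, with 825 ppm in replicate 1 and 519 ppm in replicate 2, and was named after its values were seen. Over all 42 genes, opposite-strand reads made up 6.72 ppm in replicate 1 and 14.0 ppm in replicate 2. Mirlet7b and Mir130a held 23 of the 29 opposite-strand reads in replicate 1 and 32 of 36 in replicate 2. Without them, a choice made after seeing the data, the other 40 genes had 1.60 ppm in replicate 1 and 1.79 ppm in replicate 2. The share of Mir126b in replicate 1, with its wide interval, thus lay below the pooled share of all 42 genes and above that of the 40. In replicate 2 it lay above both, and 6 of the 42 genes in replicate 1 and 3 in replicate 2 had a larger one. A count of 0 was found at 36 of the 42 genes in replicate 1 and at 38 in replicate 2. The limit of 3 reads lay above the share of Mir126b at all of these in replicate 1. In replicate 2 it did so at many of them, as at Mir361 (441 ppm), so these genes cannot be placed below Mir126b.

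**Figure D4:**
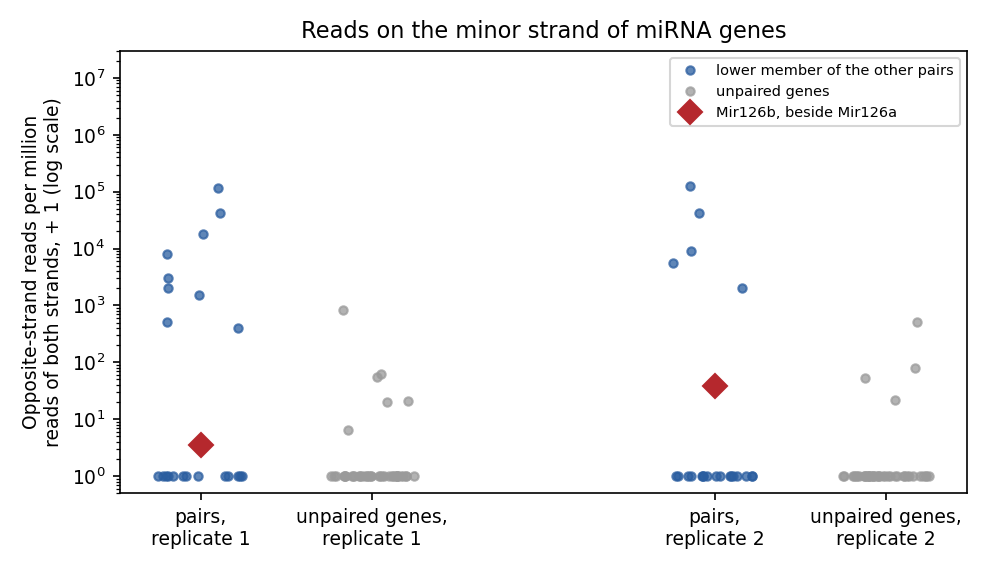
Reads on the minor strand in ppm of the reads of both strands, plus 1, on a log axis, in each library: the lower members of 23 pairs (blue, with Mir126b as a red diamond) and the opposite strand of 42 genes with no partner (grey). Mir126b lay at 2.51 ppm in replicate 1 and 36.8 ppm in replicate 2; most of the 42 genes lay at 0.

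Between the animals, Mir126a differed by less than 1.5-fold, near the middle of the genes of its level. Its CPM was 1.06 times as high in replicate 1 as in replicate 2. After scaling by the trimmed mean of M values (TMM), which moves log2 ratios up by 0.20 against total counts, the log2 ratio of replicate 1 over replicate 2 was 0.29 with a counting error of 0.0038 (SE). It was positive by total counts too, at 0.086. With 1 library on each side there is no replicate check and no test. Of 389 genes with 10 or more reads in mean, 14.4% lay past 2-fold and 35.2% past 1.5-fold, and Mir126a lay within both. Its absolute ratio exceeded that of 152 of the 389 genes, and of 35 of the 74 genes with 1000 CPM or more in mean.

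The genes of 1000 CPM or more with the most similar log2 ratio were Mir127 (0.27), an imprinted gene of chromosome 12, Mir134 (0.31) from the same chromosome, and Mir30a (0.31) on chromosome 1. They differ from Mir126a by 0.02, 0.03 and 0.03 over 2 libraries, among 73 candidates. Mir126b had too few reads for this comparison. Its log2 ratio was -3.09 with a counting error of 1.28 (SE), from 1 read against 8.

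**Figure D5:**
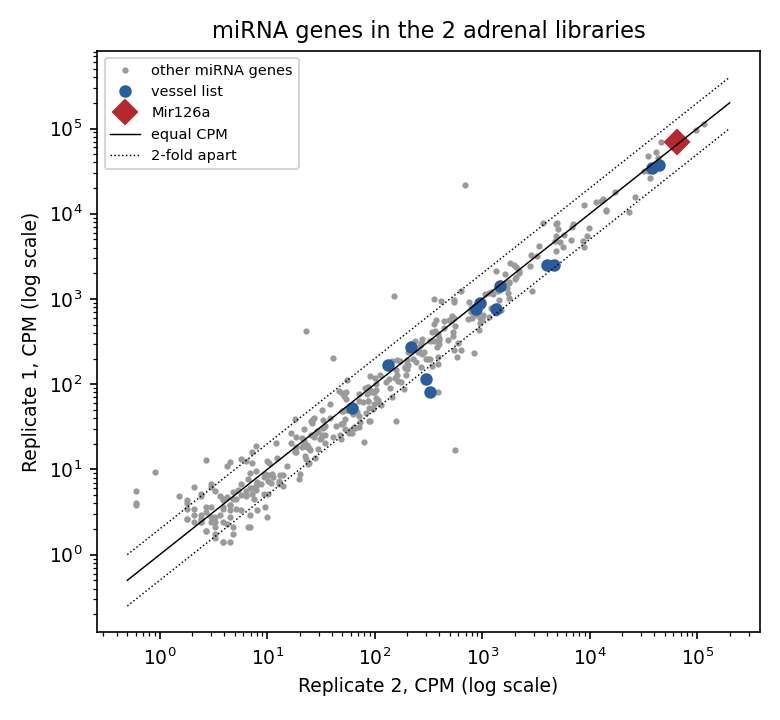
CPM in replicate 1 against replicate 2 on log axes for 389 miRNA genes with 10 or more reads in mean; the solid line marks equal CPM and the dotted lines 2-fold differences. Mir126a (red diamond) lies near the line at 69154 and 65133 CPM, above the other members of the vessel list (blue).

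A list of 15 miRNAs known from endothelial cells or vessel growth gives the setting of Mir126a. Of these, 14 were detected, all but Mir126b, where 16.9% of all miRNA genes were. All 15 together took 149644 CPM in replicate 1 against 161904 CPM in replicate 2, and Mir126a was the highest member. Mir23a, which acts in vessel sprouting, lay at 36969 CPM in replicate 1 and at 44336 CPM in replicate 2, and its relative Mir23b at 33985 and 38091 CPM. Mir27b, from the cluster of Mir23b, lay at 2487 CPM in replicate 1 and at 4632 CPM in replicate 2. Mir130a lay at 2526 and 4045 CPM, and Mir132, a miRNA of growth-factor-stimulated endothelium, had 1416 and 1449 CPM.

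Of the 14 tested genes of this list, 0 were past 2-fold higher in replicate 1, where 8.23% of all tested genes were. Past 2-fold lower were 2 genes, where 6.17% of all tested genes were. These 2, named after their values were seen, were Mir222 (log2 ratio -1.82) and Mir24-2 (-1.21). The median log2 ratio was -0.03 for the list and 0.01 for all 389 genes. Mir24-1, Mir24-2 and Mir92-1 make products that have further loci, and their counts lack the reads with several alignments.

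The endothelial marker list holds only Mir126a and Mir126b, and the files count miRNA genes alone, so the label of an endothelial locus could not be checked on Egfl7 itself. In whole glands, fewer cells of a type and less RNA per cell cannot be told apart. Markers of other cells varied in how they moved. Of 4 listed symbols of red blood cell genes, 3 were found in the annotation. These 3 genes were detected, where 16.9% of all miRNA genes were. The symbol Mir486b was not found, and Mir3107, annotated opposite Mir486, had 28 reads in replicate 1 and 8 in replicate 2. The 3 genes held 22813 CPM together in replicate 1 and 901 CPM in replicate 2. All 3 were past 2-fold higher in replicate 1, where 8.23% of all tested genes were. Smooth muscle genes, with 2 of 3 detected and 0 past 2-fold where 14.4% of all tested genes were, summed to 32759 and 33319 CPM. Most of this was Mir143 (log2 ratio 0.19), and Mir145a went the other way (-0.34). White blood cell genes, with 5 of 6 detected, summed to 2956 and 3251 CPM, with a median log2 ratio of 0.16. Of these 5, 1 was past 2-fold lower in replicate 1, where 6.17% of all tested genes were. It was the myeloid gene Mir223 (36.7 CPM in replicate 1, 159 in replicate 2, log2 ratio -1.92). Neuroendocrine genes, with 4 of 4 detected and 0 past 2-fold against the same 14.4%, summed to 72802 and 51447 CPM, most of it Mir375 (log2 ratio 0.77). Their median log2 ratio was 0.17, with Mir7-2 at 0.41, Mir7-1 at -0.07 and Mir7b at -0.20. These counts, too, lack the reads with several alignments. The hepatocyte gene Mir122 had 690 and 1331 CPM (log2 ratio -0.75). Among the annotated markers none was at 0 in both libraries. With Mir126a and Mir451a, the erythroid gene with the most reads, left out of the denominator, Mir126a lay at 76058 CPM in replicate 1 and at 69723 CPM in replicate 2. The part of other cells in the level of Mir126a was not tested.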

How the data were processed

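Small RNA under 30 nt from total RNA of adrenal glands was sequenced, per the labels, from each animal once. The authors deposited raw counts for each miRNA gene, on mm10 and GENCODE M21 per the text deposited with each file. Each file has 3 count columns, without strand, on the gene's strand and on the opposite strand, as the values show. The aligner was not given in the sources used here, nor was the trimming. All 2202 identifiers matched GENCODE M21.

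The own-strand column was used for levels. Rows that name no gene took 66.2% of replicate 1 and 69.0% of replicate 2 and stayed out of the totals. These include reads aligned to several places (26.2% and 28.8%), which were not counted at genes. A count of 0 allowed 3 reads, or 0.522 CPM in replicate 1 and 0.900 CPM in replicate 2. With 1 group, no test between groups was possible. Log2 ratios have 0.5 added to each count and TMM scaling over genes with 10 or more reads in mean. In simulated counts, 100 genes were set 3-fold higher and 100 were set 3-fold lower. The other 189 had a median log2 ratio of 0.0019 after TMM scaling. The simulation held counting error only and equal folds up and down, so it does not test the scaling for differences between real animals. Shares above 0 have exact Clopper-Pearson intervals at 95%.

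The members, lists and comparisons were chosen with earlier results of these data known. Named genes were the members, their 2 neighbours on each side in CPM, the 3 nearest log2 ratios, the 5 highest pairs, miRNA genes within 500 kb, Mir451a, and up to 6 members of the vessel list. Alternatives covered the count column, denominator, scaling, pseudocount, filters and leaving out a library. TMM factors came from edgeR 4.0.16 and size factors from DESeq2 1.42.0 (R 4.3.3), folds from ViennaRNA 2.7.2, and the rest from pandas 2.3.3, SciPy 1.17.1 and matplotlib 3.10.9 under Python 3.11.15.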

Additional observations from a re-analysis of the deposited data

How the results depend on the processing

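The values depended on the count column. Without strand, the mean level of Mir126a was 2.66 CPM, its rank 360, its log2 ratio over Mir126b 4.37 and its log2 ratio between the animals -0.047, which rests on 12 and 8 reads. In the opposite-strand column the mean level was 8.94 CPM for Mir126a and 426851 CPM for Mir126b, the rank of Mir126a was 36, and the log2 ratio over Mir126b was -16.3. The mean level of Mir126a was 72890 CPM with Mir126a and Mir451a left out of the denominator, 53659 in each 1000000 uniquely aligned reads and 21796 in each 1000000 reads. Its log2 ratio between the animals was 0.086 by total counts, 0.27 by DESeq2 size factors, 0.24 by uniquely aligned reads and 0.27 with 100 or more reads in mean.

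Leaving out each library gave 65133 to 69154 CPM for Mir126a, 0.174 to 2.40 CPM for Mir126b, log2 ratios of 14.64 to 18.02, and rank 3. It gave 22 to 23 genes that lose their reads without strand and 4 to 6 unpaired genes with opposite-strand reads. With 1000 or more reads in mean, 14 of 144 genes lost at least 90%. Past 1.5-fold were 137 genes between the animals, and past 2-fold 26 of 259 with 100 or more reads and 253 of 750 with no filter. Opposite-strand reads were found at 11 of 130 unpaired genes with 1000 or more reads and at 2 of 10 with 100000 or more, thresholds chosen after seeing the data. Without Mirlet7b and Mir130a, the pooled opposite-strand share of unpaired genes was 1.60 ppm in replicate 1 and 1.79 ppm in replicate 2. Of 59 alternative values, 35 stayed within the spread or counting interval of the value reported. The values of the opposite-strand column are among the rest. No paired analysis was possible because there is 1 group, so no groups share replicate numbers. Mir126a and Mir126b were compared within each animal. The 1 and 8 reads of Mir126b limit every statement on it.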
